A study of Mus musculus with 2 samples.

Results

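The genes described here are 37 genes of fatty acid handling, lipid droplets, triacylglycerol assembly and sterol synthesis, taken by name from the 25289 gene columns of a single-cell RNA table of mouse bone marrow stroma. All 37 were columns of the table, and the rule is a list of names with no threshold on a value. The cells came from the crushed femurs, tibiae and pelvic bones of mice of the strain labelled C56BL/6, aged 8 to 16 weeks, and sorting kept those without surface CD31, CD45 or Ter119, proteins of endothelial and blood cells, although markers of such cells were still counted. The design has 1 group of 2 samples, both of stroma: Stroma1 with 2 libraries and Stroma2 with 3, prepared with the inDrops droplet method. The labels do not say how many mice a sample pooled, so p-values do not measure the spread between mice. Those of class comparisons rest only on how far these 2 samples disagree about the differences between classes.

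After the authors' own filter, Stroma1 held 948 cells and 1658990 counts (median 1523.5 a cell), and Stroma2 1899 cells and 3687913 counts (median 1324 a cell). In Stroma1, 32 of 916 barcodes (3.49%) occurred in more than 1 library, and in Stroma2 203 of 1667 (12.2%). The authors placed each cell in 1 of 7 classes, and 6 had enough cells in both samples to be compared: Pre-adipocyte (66 and 145 cells in Stroma1 and Stroma2), Adipocyte progenitor (165 and 298), Osteoblast progenitor (144 and 260), Pre-osteoblast/chondrocyte (25 and 66), Pro-osteoblast (42 and 305) and MSC, the stromal class that fills the start of the adipocyte path (502 and 815). Pro-chondrocyte had 4 and 10 cells. How the authors drew the classes and the path is not stated, and both may rest on the RNA of these same cells, lipid genes included.

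Fat cells store fatty acids as triacylglycerol in droplets coated by perilipins. Fatty acids enter or are made in the cell, are activated to acyl-CoA, are joined to glycerol by acyltransferases, and leave again through lipases. Sterol synthesis is switched on by SREBP transcription factors, which the INSIG proteins hold back in the endoplasmic reticulum when sterols are plentiful. In marrow, stromal cells that express the leptin receptor give rise to adipocytes and osteoblasts, and many of them already transcribe adipokine genes without carrying visible fat.

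Transcripts that mark stored fat were nearly absent from every class, including the adipocyte ones. Droplet and adipokine genes of mature fat cells (*Cidec*, *Plin1*, *Plin4*, *Cfd*, *Retn*, *Lep*) had between 0 and 11 counts each over all 2847 cells. Against MSC, 3 of the 20 genes with enough counts rose in Pre-adipocyte cells, *Hmgcs1*, *Acsl3* and *Angptl4*, beside 10.3% of all genes called. *Mgll* rose and *Angptl4* fell in Osteoblast progenitor, Pre-osteoblast/chondrocyte and Pro-osteoblast cells, comparisons in which 7.93%, 18% and 38.6% of all genes were called. Mitochondrial counts and depth differed along with these classes. Mitochondrial genes took 7.23% and 6.9% of the counts in Osteoblast progenitor, 7.74% and 6.37% in Pre-osteoblast/chondrocyte, 4.18% and 3.74% in Pro-osteoblast and 2.73% and 3.11% in Pre-adipocyte cells, against 4.32% and 4.31% in MSC cells. Median counts a cell were 4422 and 4201 in Pro-osteoblast cells, against 1377.5 and 1160 in MSC cells. Their part in the calls was not tested. *Acsl3* and *Mgll* entered the test only through classes in which they were higher than in MSC cells.

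*Hmgcs1*, *Insig1* and *Mgll* carry the sterol and lipolysis results, and their promoters are shown for that reason. Each runs from 250 bases before to 50 bases after a transcript start, 5′ to 3′ on the gene's strand, from RefSeq with build GRCm38.p6. Capitals mark 3 motifs searched on both strands. The sterol regulatory element core, a site that SREBP proteins bind, was searched as TCACNCCAC. The E-box, bound by several helix-loop-helix factors, was searched as CACGTG. The third, bound by the factor NF-Y, was the CCAAT box, and none of the 3 contains another. The promoters lie at chr13:119690101-119690400, chr5:28071162-28071461 and chr6:88724162-88724461, all on the plus strand, and the last belongs to the first of 2 listed *Mgll* starts.
Hmgcs1: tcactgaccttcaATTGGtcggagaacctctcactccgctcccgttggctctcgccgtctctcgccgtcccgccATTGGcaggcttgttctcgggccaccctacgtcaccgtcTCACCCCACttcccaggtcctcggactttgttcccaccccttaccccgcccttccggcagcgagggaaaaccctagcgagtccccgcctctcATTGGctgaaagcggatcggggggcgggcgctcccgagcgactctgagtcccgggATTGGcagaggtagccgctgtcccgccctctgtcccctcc
Insig1: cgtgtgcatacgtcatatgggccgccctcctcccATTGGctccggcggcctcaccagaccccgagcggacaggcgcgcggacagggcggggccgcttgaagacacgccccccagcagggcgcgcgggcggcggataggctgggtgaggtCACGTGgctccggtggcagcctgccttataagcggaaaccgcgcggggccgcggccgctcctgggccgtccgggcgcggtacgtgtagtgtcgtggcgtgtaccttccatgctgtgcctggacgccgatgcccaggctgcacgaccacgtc
Mgll: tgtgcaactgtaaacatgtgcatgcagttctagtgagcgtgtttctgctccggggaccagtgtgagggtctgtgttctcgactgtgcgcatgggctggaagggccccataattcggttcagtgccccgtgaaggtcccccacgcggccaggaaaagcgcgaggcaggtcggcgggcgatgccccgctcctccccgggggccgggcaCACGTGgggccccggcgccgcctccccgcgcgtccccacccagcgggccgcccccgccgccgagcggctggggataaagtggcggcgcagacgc

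RefSeq promoters were matched for 26 of the 37 genes, 32 promoters in all. Motifs are counted below per gene, in any of its promoters, while the shares are of all promoters, so the units differ. The sterol element core occurred in those of *Acsl1* and *Hmgcs1*, and in 1.24% of all 32851 promoters. The E-box occurred in those of *Plin2*, *Lipe*, *Mgll* and *Insig1*, and in 7.15% of all promoters. The CCAAT box was found in 13 of the 26 genes and in 37.4% of all promoters. A match is a run of letters and says nothing about binding in these cells.

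Counting depth set what could be tested. Class comparisons were made on counts summed per class and sample, using edgeR's quasi-likelihood test. Values of p were adjusted by Benjamini-Hochberg across the 6229 genes that entered, with a call below 0.05. A gene entered when at least 2 of the 12 sums reached about 35.8 CPM (counts scaled to the same total in every sum), and 20 of the 37 genes did. *Fabp5*, *Acsl3*, *Mgll*, *Dgat1* and *Insig1* entered with no MSC sum at that level, so they came in through classes in which they were higher. Strand use in the counting is not given in the sources used here, and reads shared with near-identical gene copies, as for *Fabp5*, cannot be placed with certainty.

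**Figure D1:**
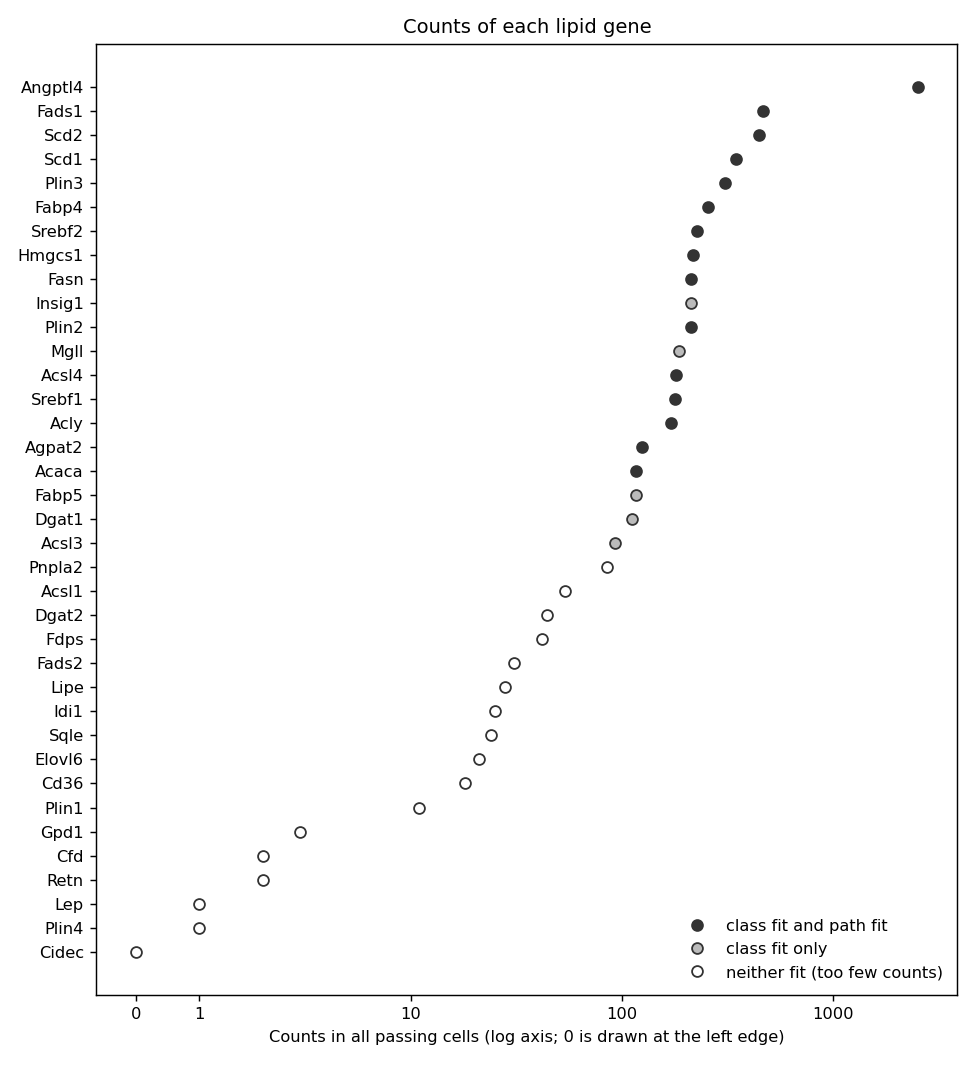
Counts of each of the 37 lipid genes over all passing cells (x axis, log scale with 0 drawn at the left edge). Filled points passed the count filter of both fits, grey points only that of the class fit and open points neither; *Angptl4* stands at 2524 counts and *Cidec* at 0.

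Too few counts were found for 17 genes, and they are given as counts over all 2847 cells. *Pnpla2*, the adipose triglyceride lipase, had 85 counts, and *Acsl1*, an acyl-CoA synthetase of fat cells, had 54. *Dgat2*, which adds the last fatty acid to triacylglycerol, had 44, and *Fdps*, a farnesyl diphosphate synthase, 42. The desaturase *Fads2* had 31 counts. Hormone-sensitive lipase *Lipe* had 28, and the sterol enzymes *Idi1* and *Sqle* had 25 and 24. The elongase *Elovl6* had 21 counts and the fatty acid transporter *Cd36* had 18. *Plin1*, the perilipin of large droplets, had 11 counts. Glycerol-3-phosphate dehydrogenase *Gpd1* had 3, complement factor D (*Cfd*) and resistin (*Retn*) had 2 each, leptin (*Lep*) and *Plin4* had 1 each, and the droplet fusion gene *Cidec* had 0. A count of 0 allows up to 3 counts, which covers counting error only.

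The adipocyte classes lacked most markers of a mature fat cell. Of 9 mature adipocyte markers in the table, 4 had any count in Pre-adipocyte cells, with *Plin1*, *Cidec*, *Cfd*, *Retn* and *Lep* at 0, and 3 had one in Adipocyte progenitor cells. Nearly all of that list's level was adiponectin (*Adipoq*), at 2255 and 1399 CPM in Pre-adipocyte cells of Stroma1 and Stroma2, against 1925 and 1808 CPM in MSC cells, where the samples overlapped. *Car3* of the adipocyte list was high outside the adipocyte classes, at 1837 and 2086 CPM in Pro-osteoblast cells, against 5.49 and 6.82 CPM in MSC cells. The 10 MSC markers summed to 61830 and 56862 CPM in Pre-adipocyte cells, against 80333 and 82148 CPM in MSC cells. Most of that sum was *Cxcl12*, at 47899 and 43714 CPM in Pre-adipocyte and 63488 and 65664 CPM in MSC cells. *Vcam1* of that list was not lower, at 3114 and 3081 CPM against 3058 and 2983 CPM. The 10 osteoblast markers summed to 214973 and 214599 CPM in Pro-osteoblast cells, against 8465 and 8928 CPM in MSC cells. Nearly all of the Pro-osteoblast sum was *Col1a1*, at 201263 and 202082 CPM. *Ibsp* went the other way, at 1827 and 1829 CPM there, against 5629 and 5962 CPM in MSC cells.

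Summed over all 37 genes, the level depended on the scaling and on *Angptl4*. On plain totals it was 1645 and 1864 CPM in Pre-adipocyte, 1608 and 1666 in Adipocyte progenitor, 1664 and 1483 in Osteoblast progenitor, 1376 and 1412 in Pre-osteoblast/chondrocyte, 609 and 591 in Pro-osteoblast, and 1639 and 1728 CPM in MSC cells. Divided by the TMM factors, the sum was 1032 and 1169 CPM in Pro-osteoblast and 1311 and 1382 CPM in MSC cells. Without *Angptl4* the TMM-scaled sum was higher in Pro-osteoblast cells, at 969 and 1101 CPM, against 748 and 795 CPM in MSC cells, while on plain totals it was lower there, at 571 and 557 CPM, against 935 and 994 CPM in MSC cells. A test of any difference among the 6 classes called 11 of the 20 genes (*Angptl4*, *Mgll*, *Scd1*, *Insig1*, *Fabp4*, *Plin2*, *Srebf2*, *Acsl3*, *Fads1*, *Hmgcs1* and *Acsl4*), beside 44.5% of all genes tested. In these sums, fewer expressing cells and less RNA per cell cannot be told apart.

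Changes below are log2 differences after TMM scaling, which sets the typical gene near 0. Plain totals would move the median of all genes by -0.31 in Pre-adipocyte, -0.18 in Adipocyte progenitor, -0.04 in Osteoblast progenitor, -0.21 in Pre-osteoblast/chondrocyte and -1.24 in Pro-osteoblast cells against MSC, and by -0.13 in Pre-adipocyte against Adipocyte progenitor cells. Of all genes called, 82% were higher in Pre-adipocyte cells with TMM and 43.7% with plain totals. These shares were 94.6% and 78.2% in Adipocyte progenitor, 52.1% and 39.6% in Pre-osteoblast/chondrocyte, 51.6% and 9.24% in Pro-osteoblast cells, and 86.4% and 73% in Pre-adipocyte against Adipocyte progenitor cells. CPM values are on plain totals throughout, so a CPM pair and its log2 change need not match, most of all in Pro-osteoblast cells.

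**Figure D2:**
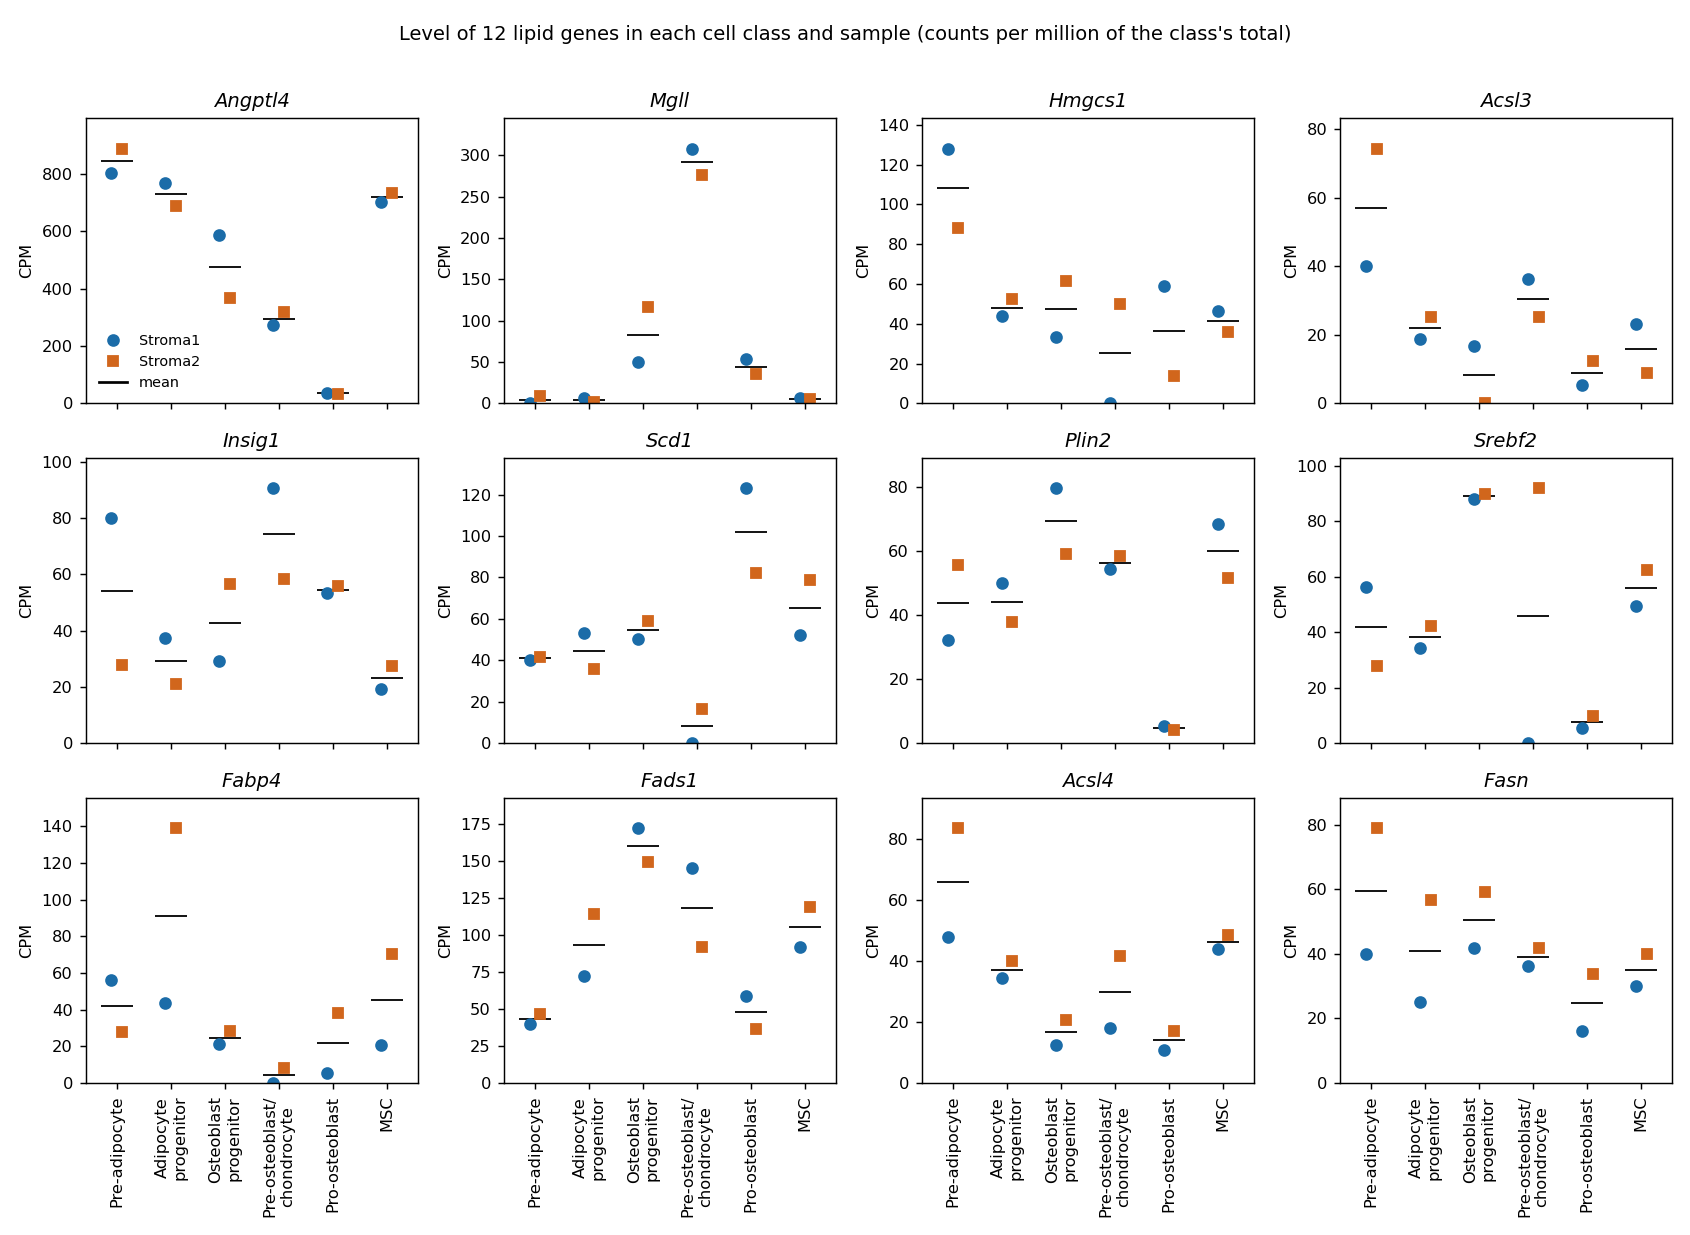
Level of 12 lipid genes in CPM (y axis, from 0) in each of 6 classes (x axis), with a circle for Stroma1, a square for Stroma2 and a bar for their mean. *Mgll* reaches 308 and 276 CPM in Pre-osteoblast/chondrocyte cells, *Angptl4* drops to 37.4 and 34.5 CPM in Pro-osteoblast cells, and *Hmgcs1* is highest in Pre-adipocyte cells of both samples.

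*Angptl4*, a secreted inhibitor of lipoprotein lipase, was the one abundant gene of the set, with 2524 counts in 1258 cells. Its level was 802 and 888 CPM in Pre-adipocyte, 770 and 688 in Adipocyte progenitor, 587 and 368 in Osteoblast progenitor, 272 and 317 in Pre-osteoblast/chondrocyte, 37.4 and 34.5 in Pro-osteoblast, and 703 and 734 CPM in MSC cells. Both samples of Pre-adipocyte cells lay above both of MSC, and all samples of the 3 osteoblast classes lay below, while Adipocyte progenitor and MSC cells overlapped. Mean levels were 845 ± 60.2 CPM in Pre-adipocyte, 35.9 ± 2.07 in Pro-osteoblast and 719 ± 21.5 CPM in MSC cells (SD, n = 2 each).

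Against MSC, *Angptl4* fell by 3.11 on the log2 scale in Pro-osteoblast cells (SE 0.21, edgeR adjusted p = 4.2e-23). It fell by 1.04 in Pre-osteoblast/chondrocyte (SE 0.23, edgeR adjusted p = 2.7e-04) and by 0.61 in Osteoblast progenitor cells (SE 0.15, edgeR adjusted p = 0.00233). The Osteoblast progenitor call was lost without library 1.2 (edgeR adjusted p = 0.11). In Pre-adipocyte cells it rose by 0.54 (SE 0.15, edgeR adjusted p = 0.00797), and this small change was 0.23 with plain totals (edgeR adjusted p = 0.387). It was called in 8 of 14 alternatives. It was not called with no count filter (log2 0.39, edgeR adjusted p = 0.473), in cells with at least 1000 counts (log2 0.39, edgeR adjusted p = 0.102) or by DESeq2's Wald test (adjusted p = 0.241). That call was also lost without library 1.2 (log2 0.46, edgeR adjusted p = 0.193) and without library 2.1 (log2 0.44, edgeR adjusted p = 0.132). In Adipocyte progenitor cells the change was 0.18 (SE 0.13, edgeR adjusted p = 0.728) and -0.00 with plain totals.

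*Mgll*, the monoacylglycerol lipase that frees the last fatty acid and also breaks down an endocannabinoid, had the opposite pattern. Its level was 0 and 9.29 CPM in Pre-adipocyte, 6.26 and 2.10 in Adipocyte progenitor, 50.3 and 116 in Osteoblast progenitor, 308 and 276 in Pre-osteoblast/chondrocyte, 53.4 and 35.8 in Pro-osteoblast, and 6.86 and 4.87 CPM in MSC cells. The 3 osteoblast classes lay above every adipocyte and MSC sample, and Pre-osteoblast/chondrocyte cells stood apart from the other two at a mean of 292 ± 22.8 CPM (SD, n = 2). MSC cells held 5 counts in each sample.

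Against MSC, *Mgll* rose by 5.75 on the log2 scale in Pre-osteoblast/chondrocyte cells (SE 0.52, edgeR adjusted p = 6.6e-16). The rise was 3.88 in Osteoblast progenitor (SE 0.52, edgeR adjusted p = 7.6e-09) and 3.88 in Pro-osteoblast cells (SE 0.53, edgeR adjusted p = 1.5e-09). With plain totals the Pro-osteoblast value was 2.67 (edgeR adjusted p = 2.7e-05). All 3 calls held in each alternative tested (14, 12 and 14 in Osteoblast progenitor, Pre-osteoblast/chondrocyte and Pro-osteoblast cells). In the neighbour setting, cells took their class from the authors' classes of neighbouring cells, found without the lipid genes. There 60.4%, 78% and 100% of the cells of these 3 classes kept their class. The authors' classes may themselves rest on lipid genes. That setting therefore cannot show that the calls are independent of how the classes were drawn. The other lipases, *Lipe* and *Pnpla2*, were too sparse to test, and in Pro-osteoblast cells *Lipe* had 0 and 7 counts, against 7 and 7 in MSC cells.

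The sterol genes moved in both directions and in different classes. *Hmgcs1*, which makes the HMG-CoA from which sterols are built, was at 128 and 88.3 CPM in Pre-adipocyte, 43.8 and 52.6 in Adipocyte progenitor, 33.5 and 61.7 in Osteoblast progenitor, 0 and 50.1 in Pre-osteoblast/chondrocyte, 58.8 and 13.8 in Pro-osteoblast, and 46.6 and 36.1 CPM in MSC cells. Both samples of Pre-adipocyte cells were above every other class and sample, and the other 5 classes overlapped one another. It rose by 1.65 in Pre-adipocyte cells against MSC (SE 0.44, edgeR adjusted p = 0.00536), with 1.34 on plain totals, and was called in 13 of 14 alternatives. The exception was DESeq2's Wald test, with an adjusted p of 0.0987. Its promoter, shown above, was one of the pair holding the sterol element core. The other sterol enzymes of the set, *Sqle*, *Fdps* and *Idi1*, were too sparse to test and could not be called. Together they gave 1 count in Pre-adipocyte cells, all of it *Fdps*.

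*Insig1*, the sterol-sensing brake on SREBP, was at 80.2 and 27.9 CPM in Pre-adipocyte, 37.5 and 21.0 in Adipocyte progenitor, 29.3 and 56.5 in Osteoblast progenitor, 90.6 and 58.5 in Pre-osteoblast/chondrocyte, 53.4 and 55.8 in Pro-osteoblast, and 19.2 and 27.3 CPM in MSC cells. All samples of the other classes except Adipocyte progenitor Stroma2 were above both MSC samples, some of them narrowly. It rose by 2.41 in Pro-osteoblast cells (SE 0.41, edgeR adjusted p = 4.7e-07) and by 1.17 on plain totals (edgeR adjusted p = 0.0101). In Pre-osteoblast/chondrocyte cells it rose by 1.73 (SE 0.62, edgeR adjusted p = 0.0403), a call kept in 6 of 12 alternatives. It was lost with no count filter (edgeR adjusted p = 0.224), on plain totals (0.0777), in cells with at least 1000 counts (0.0775), without cells with an endothelial count (0.135), by DESeq2's Wald test (0.0578) and without library 2.1 (0.281), each an adjusted p. In Pre-adipocyte cells its change was 1.31 (SE 0.55, edgeR adjusted p = 0.133), from samples at 2.07 and 0.27 when taken alone. Of the alternatives run, it passed in that class without library 2.2 (edgeR adjusted p = 0.0419) and in no other.

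*Srebf2*, the SREBP of sterol synthesis, was at 5.34 and 9.65 CPM in Pro-osteoblast cells, against 49.4 and 62.4 CPM in MSC cells, with no overlap. It fell there by 1.49 (SE 0.51, edgeR adjusted p = 0.0132), and without library 2.1 the adjusted p was 0.0622. *Srebf1*, the SREBP of fatty acid synthesis, did not pass in any class, with changes between -0.71 and -0.12. In Pro-osteoblast cells *Insig1* and *Srebf2* changed in opposite directions under both scalings.

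Activation of fatty acids gave the third call in Pre-adipocyte cells. *Acsl3*, an acyl-CoA synthetase of the endoplasmic reticulum and young droplets, was at 40.1 and 74.4 CPM in Pre-adipocyte, against 23.3 and 8.77 CPM in MSC cells, and the samples did not overlap. Only 5 and 16 counts lay behind the Pre-adipocyte values. It rose by 2.28 (SE 0.69, edgeR adjusted p = 0.0164), with 0.93 in Stroma1 alone and 2.73 in Stroma2 alone, and without library 2.1 the adjusted p was 0.0777. Without library 1.2 it fell below the count filter. DESeq2's Wald test gave an adjusted p of 0.0575. *Acsl4*, which prefers arachidonic acid, was at 48.1 and 83.7 CPM in Pre-adipocyte and 43.9 and 48.7 CPM in MSC cells, and did not pass (edgeR adjusted p = 0.317). *Fabp5*, a second fatty acid carrier, passed in no class, with 16.0 and 18.6 CPM in Pro-osteoblast and 6.86 and 23.4 CPM in MSC cells (log2 1.37, SE 0.63, edgeR adjusted p = 0.0785). In Pro-osteoblast cells its change was 0.13 on plain totals, and it passed in 2 of 12 alternatives. These were cells with at least 1000 counts (log2 1.88, edgeR adjusted p = 0.0239) and library 2.2 left out (log2 1.76, edgeR adjusted p = 0.0342).

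Some lists of markers of other cell types were higher in Pre-adipocyte than in MSC cells, and others were not. B cell markers summed to 690 and 683 CPM in Pre-adipocyte cells, against 673 and 758 CPM in MSC cells. Erythroid ones summed to 88.3 and 92.9 CPM, against 94.6 and 93.6 CPM. Smooth muscle and pericyte markers were lower, at 1212 and 1404 CPM, against 2024 and 1940 CPM in MSC cells. The 10 neutrophil markers summed to 2359 and 381 CPM in Pre-adipocyte cells, against 27.4 and 30.2 CPM in MSC cells, with *S100a9* at 1340 and 223 CPM and *Ngp*, *Camp*, *Elane* and *Mpo* at 0. Macrophage markers summed to 64.2 and 46.5 CPM in Pre-adipocyte cells, against 28.8 and 11.7 CPM in MSC cells, and endothelial ones to 40.1 and 23.2 CPM in Pre-adipocyte cells, against 34.3 and 38.0 CPM in MSC cells. Of the chondrocyte markers, 9 of 10 were in the table and 7 had a count in Pre-adipocyte cells, with *Matn3* and *Chad* at 0. They summed to 144 and 1120 CPM there, against 75.4 and 92.6 CPM in MSC cells. *Sox9* was at 96.3 and 720 CPM and *Acan* at 8.02 and 283 CPM in Pre-adipocyte cells, against 13.7 and 35.1 CPM of *Sox9* and 0 and 2.92 CPM of *Acan* in MSC cells, and Stroma2, where *Acsl3* differed more, was the higher sample for both. In Osteoblast progenitor cells the neutrophil markers summed to 16.8 and 393 CPM, again against 27.4 and 30.2 CPM in MSC cells, with *Ltf*, *Elane* and *Mpo* at 0. The part of these markers in the Pre-adipocyte and Osteoblast progenitor calls was not tested.

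Set against Adipocyte progenitor cells, Pre-adipocyte cells differed in 0 of the 20 genes by edgeR, beside 4.96% of all genes, 4.29% higher and 0.674% lower. At an unadjusted p under 0.05 there were 5, and DESeq2's Wald test also called 0. *Hmgcs1* was 1.22 higher (SE 0.47, edgeR adjusted p = 0.142) with no overlap of samples. *Angptl4* was 0.37 higher (SE 0.16, edgeR adjusted p = 0.24), and *Fabp4* 1.16 lower (log2 -1.16, SE 0.53, edgeR adjusted p = 0.277). Adipocyte progenitor against MSC also had 0 calls of 20 by edgeR, beside 4.17% of all genes, with 1 at an unadjusted p under 0.05 and 0 by DESeq2's Wald test.

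*Fabp4*, the fatty acid carrier used as a fat cell marker, came nearest to a call in Adipocyte progenitor cells. It was at 43.8 and 139 CPM in Adipocyte progenitor, 56.2 and 27.9 in Pre-adipocyte, 21.0 and 28.3 in Osteoblast progenitor, 0 and 8.35 in Pre-osteoblast/chondrocyte, 5.34 and 37.9 in Pro-osteoblast, and 20.6 and 70.2 CPM in MSC cells. Stroma2 was above Stroma1 in each of these classes except Pre-adipocyte, and Adipocyte progenitor and MSC cells overlapped. The change in Adipocyte progenitor cells was 1.17 (SE 0.37, edgeR adjusted p = 0.0525). With each barcode counted once the adjusted p was 0.0419, and without library 2.2 the change was 1.85 (edgeR adjusted p = 0.00126). Without library 2.3 it was 0.63 (edgeR adjusted p = 0.643). In Pre-adipocyte cells the change was 0.01 (SE 0.55), and it turned negative in 7 alternatives.

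The counts of *Fabp4* lay in few cells. Of its 254 counts in 70 cells, 157 (61.8%) were in 10 cells, and 1 cell held 31. Among the other 24 lipid genes with counts in at least 30 cells, that share ran between 3.65% for *Angptl4* and 40.9% for *Dgat2*. The 10 cells lay in Adipocyte progenitor (4 cells), MSC (3), Pro-osteoblast (2) and Osteoblast progenitor (1), none in Pre-adipocyte, and 9 of them in Stroma2. They also held 36 of the 175 counts of the 10 endothelial markers found in all passing cells. With the 120 cells that had an endothelial count left out, Pro-osteoblast cells of Stroma2 dropped to 1.52 CPM of *Fabp4*, and Adipocyte progenitor cells stood at 46.2 and 79.2 CPM, against 17 and 48 CPM in MSC cells.

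**Figure D3:**
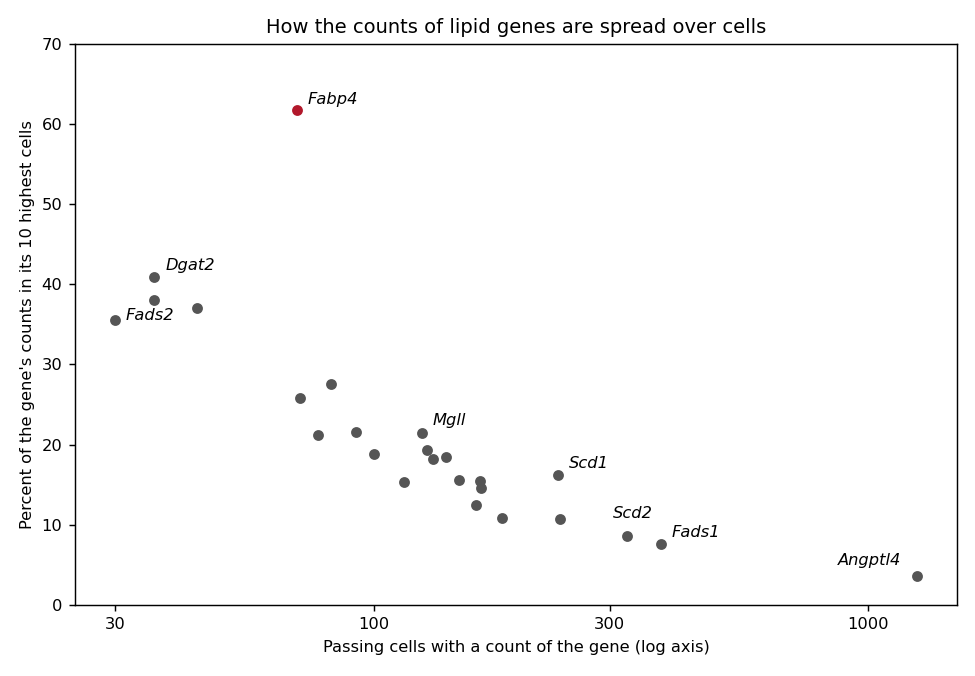
Percent of a gene's counts held by the 10 cells with the most (y axis) against the number of cells with a count (x axis, log scale), for the 25 lipid genes with counts in at least 30 cells. *Fabp4*, in red, stands at 61.8% with 70 cells, above genes found in similar numbers of cells.

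Of 5 droplet coat genes, 2 were tested and 1 was called, in Pro-osteoblast cells, where 38.6% of all genes were called. *Plin2*, which coats small droplets in most cell types, was at 5.34 and 4.14 CPM in Pro-osteoblast cells, against 68.6 and 51.7 CPM in MSC cells, and the 2 groups lay far apart. It fell by 2.45 (SE 0.57, edgeR adjusted p = 2.2e-04) and was called in all 14 alternatives. In Pre-adipocyte cells it was at 32.1 and 55.8 CPM, overlapping MSC. *Plin3*, a coat protein that also cycles through the cytosol, did not pass in any class, with levels between 32.0 and 109 CPM.

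Of 8 genes of fatty acid synthesis, elongation and desaturation, 6 were tested and 0 were called in Pre-adipocyte or Adipocyte progenitor cells against MSC, where 10.3% and 4.17% of all genes were called. *Fasn*, fatty acid synthase, was at 40.1 and 79.0 CPM in Pre-adipocyte and at 30.2 and 40.0 CPM in MSC cells, where samples came close without overlapping, and its change of 1.06 did not pass (SE 0.48, edgeR adjusted p = 0.17). *Acaca* and *Acly*, which feed it with malonyl-CoA and acetyl-CoA, had changes of -0.60 and 0.05 in Pre-adipocyte cells and passed in no class. *Fads1*, a desaturase of polyunsaturated fatty acids, was at 40.1 and 46.5 CPM in Pre-adipocyte and at 91.9 and 119 CPM in MSC cells, without overlap. Its change of -0.98 did not pass (SE 0.43, edgeR adjusted p = 0.151), though it did on plain totals (log2 -1.29, edgeR adjusted p = 0.0262) and without library 2.3 (log2 -1.56, edgeR adjusted p = 0.0382).

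*Scd1*, the stearoyl-CoA desaturase, was at 123 and 82.0 CPM in Pro-osteoblast cells, against 52.1 and 78.9 CPM in MSC cells, so Stroma2 hardly differed. It rose by 1.66 with TMM scaling (SE 0.31, edgeR adjusted p = 5.1e-06) and did not pass on plain totals (log2 0.43, edgeR adjusted p = 0.206). In Pre-osteoblast/chondrocyte cells it had 0 and 2 counts, against 119 in MSC cells, a ratio of levels of 0.169 (exact 95% interval 0.02 to 0.62, counting error only). It fell by 2.32 (SE 0.85, edgeR adjusted p = 0.0435), a call kept in 9 of 12 alternatives. The call was lost without library 2.2 (edgeR adjusted p = 0.268), with each barcode counted once (edgeR adjusted p = 0.0613) and by DESeq2's Wald test (adjusted p = 0.154). Its neighbour *Scd2* did not pass in any class, and in Pro-osteoblast cells its change was 0.53 with TMM but -0.72 on plain totals.

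Of 4 genes of triacylglycerol assembly, 2 were tested and 0 were called against MSC in any class. With shares of all genes called between 4.17% and 38.6%, a count of 0 among 2 genes shows little. *Dgat1*, which completes triacylglycerol, was at 40.1 and 51.1 CPM in Pre-adipocyte and at 26.1 and 22.4 CPM in MSC cells, without overlap, with a change of 1.26 (SE 0.63, edgeR adjusted p = 0.232). *Agpat2*, the acyltransferase lost in a human lipodystrophy, had a change of 0.05 there and of -2.39 in Pre-osteoblast/chondrocyte cells (SE 1.27, edgeR adjusted p = 0.21).

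Counting by class against MSC, 3 of 20 genes were higher and 0 lower in Pre-adipocyte cells, beside 8.48% and 1.86% of all genes. In Adipocyte progenitor cells 0 were called, beside 3.95% of all genes higher and 0.225% lower. In Osteoblast progenitor cells 1 was higher and 1 lower, beside 4.62% and 3.31%. In Pre-osteoblast/chondrocyte cells 2 were higher and 2 lower, beside 9.36% and 8.62%. In Pro-osteoblast cells 3 were higher and 3 lower, beside 19.9% and 18.7%. On plain totals 14 of 20 passed in Pro-osteoblast cells, *Mgll* and *Insig1* higher and 12 lower, beside 70.9% of all genes called, 6.55% higher and 64.3% lower, so the share of lipid genes called was near that of all genes. The median change of the 20 was 0.05, 0.09, -0.03, -0.07 and 0.17 in Pre-adipocyte, Adipocyte progenitor, Osteoblast progenitor, Pre-osteoblast/chondrocyte and Pro-osteoblast cells, and that of all genes was between -0.06 and 0.01. The comparisons share the MSC sums. Of the genes counted as higher, *Acsl3*, *Mgll* and *Insig1* had no MSC sum at the level of the count filter. They entered through classes in which they were higher and had little room to be called lower, so the tallies lean toward higher for them.

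**Figure D4:**
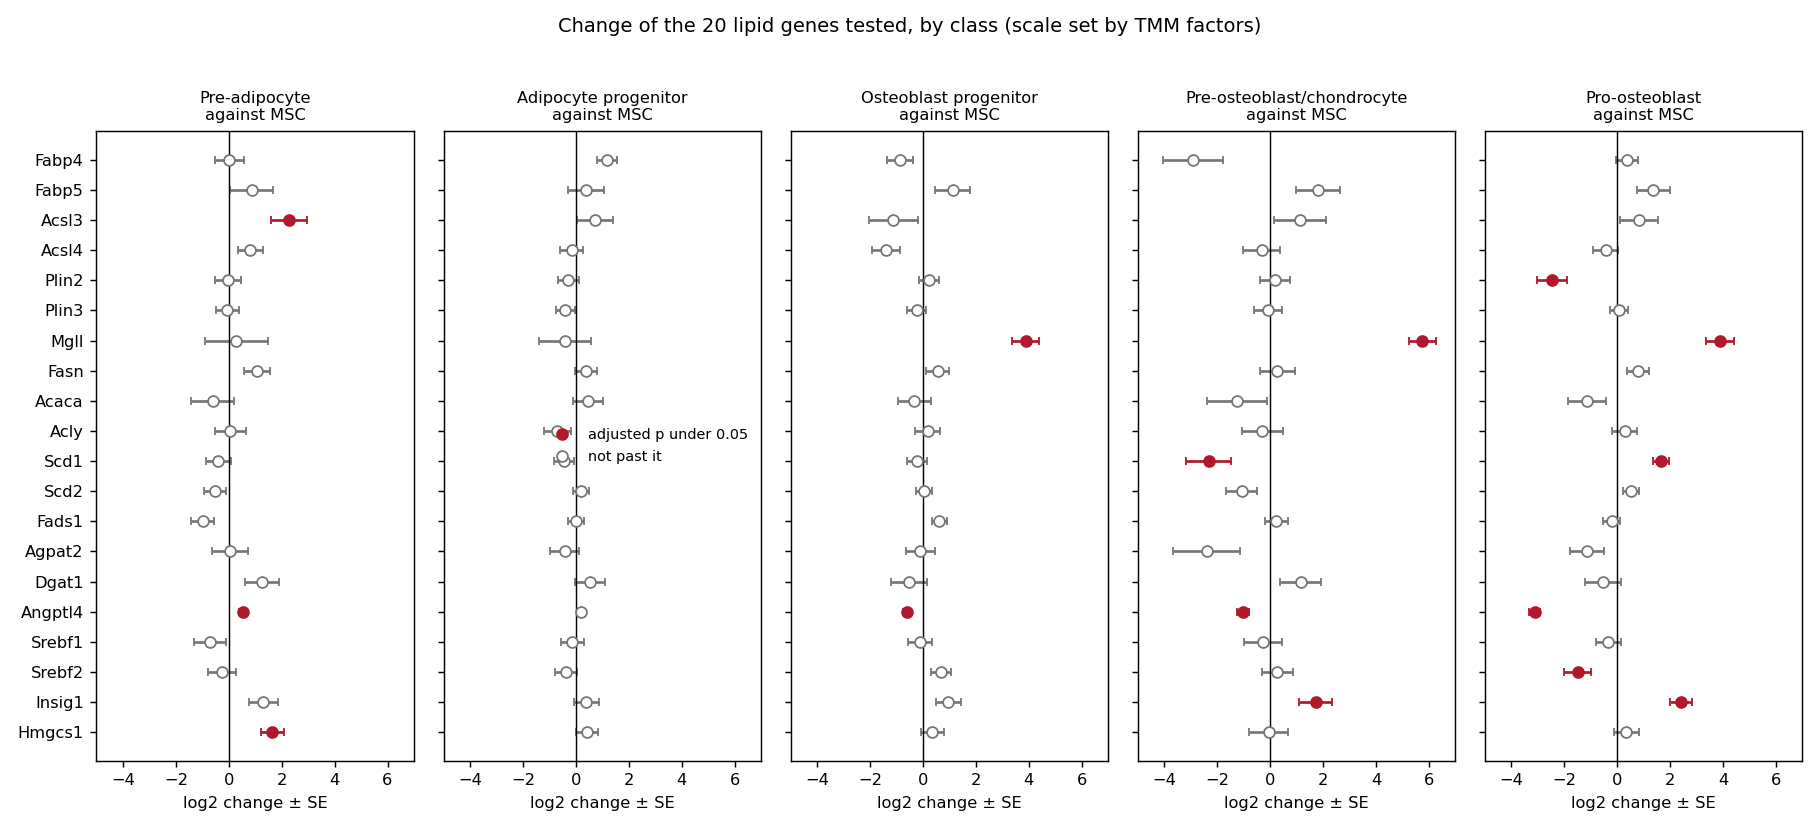
Log2 change ± SE (x axis, TMM scale) of the 20 lipid genes tested (rows) in 5 classes against MSC, one panel a class. Red filled points passed an adjusted p under 0.05; *Mgll* stands between 3.88 and 5.75 in the 3 osteoblast classes.

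Along the authors' adipocyte path, 1893 passing cells were placed from start to end by pseudotime, an evenly spaced rank from 0 to 1. They were summed in 5 bins of equal width, and the slope is the log2 change over the whole path. Its p-value rests largely on how far the bins depart from a straight line, so bins of the same sample count as replicates. Bins 1 to 3 were nearly all MSC cells, bin 4 mainly Adipocyte progenitor, and bin 5 held 66 and 144 Pre-adipocyte and 60 and 108 Adipocyte progenitor cells. Of 15 lipid genes with enough counts, 1 passed and was higher, *Hmgcs1*, beside 12% of the 5303 genes tested, 8.62% higher and 3.34% lower. *Acsl3*, *Mgll*, *Fabp5*, *Insig1* and *Dgat1* did not reach the count filter there. Plain totals would move the median of all genes by -0.30 on the path, with 72.1% of called genes higher under TMM and 41.1% under plain totals.

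*Hmgcs1* was highest at the end of the path. Its bins were at 53.4, 14.6, 54.5, 40.9 and 87.1 CPM in Stroma1, and at 16.8, 58.5, 36.3, 31.3 and 92.4 CPM in Stroma2. The last bin was the highest in both samples, and the earlier 4 had no shared order. The slope was 1.95 (SE 0.62, edgeR adjusted p = 0.0405), and 8 of 16 alternatives kept the call. It was lost on plain totals (1.60, edgeR adjusted p = 0.0769), without library 1.2 (1.44, 0.245), library 2.1 (1.85, 0.0875) or library 2.3 (1.74, 0.0917), each value a slope with its edgeR adjusted p. Within MSC cells alone the slope was 0.62 (edgeR adjusted p = 0.905), and without Pre-adipocyte cells 1.29 (edgeR adjusted p = 0.305).

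*Angptl4* was nearly level along the path, at 684, 789, 671, 642 and 892 CPM in Stroma1 and at 741, 764, 738, 685 and 821 CPM in Stroma2. The last bin was the highest in both samples, and the slope of 0.46 did not pass (SE 0.21, edgeR adjusted p = 0.177). *Srebf1* was highest in bin 1, at 72.8 and 67.3 CPM, and at 29.0 and 28.2 CPM in bin 5, and its slope of -1.32 did not pass with TMM (SE 0.54, edgeR adjusted p = 0.129). On plain totals it was -1.60 (edgeR adjusted p = 0.0491). *Fabp4* was high at both ends in both samples, with 48.5, 14.6, 4.20, 32.7 and 53.9 CPM in Stroma1 and 101, 17.2, 19.8, 102 and 164 CPM in Stroma2, and its slope of 1.71 did not pass (SE 0.78, edgeR adjusted p = 0.173).

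**Figure D5:**
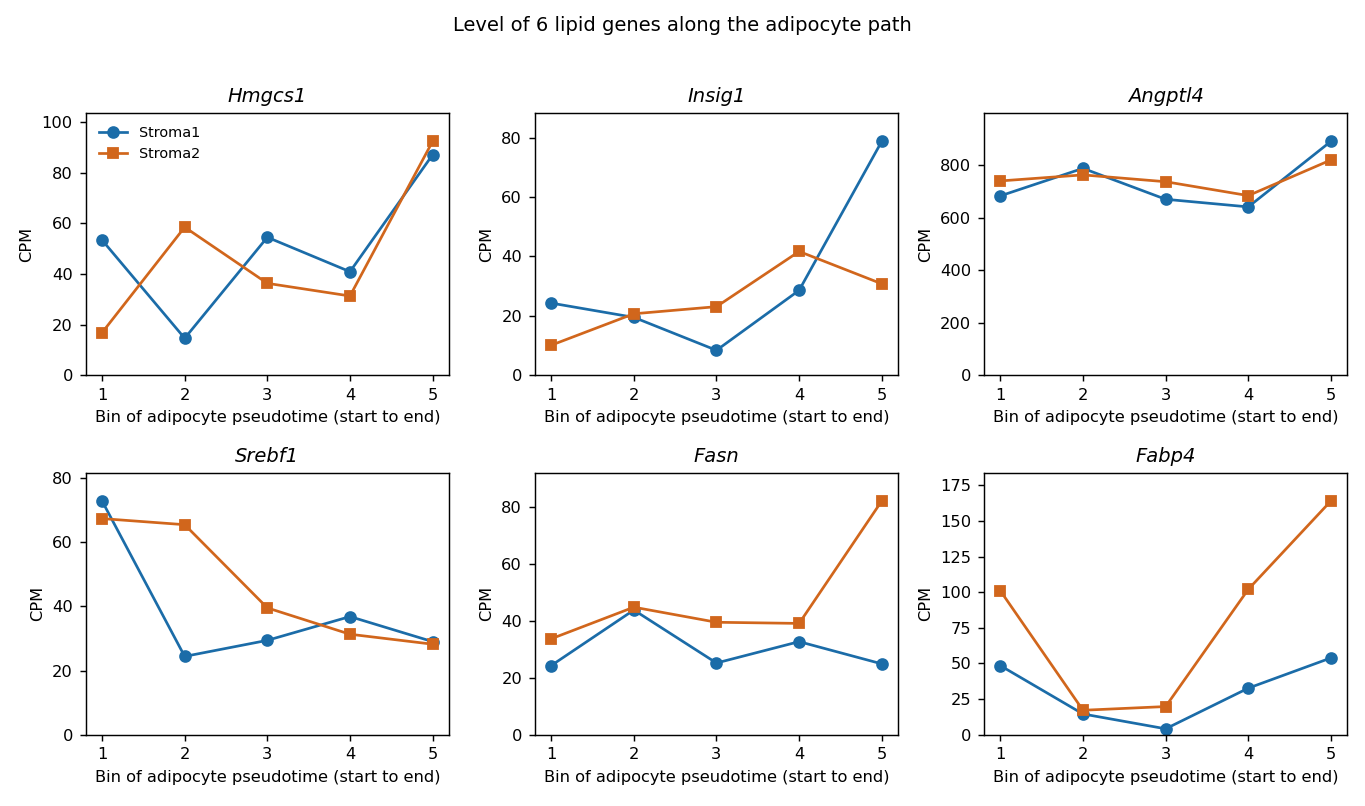
Level in CPM (y axis, from 0) of 6 lipid genes in 5 bins of the adipocyte path (x axis, start to end), with a line for each sample. *Hmgcs1* is at 87.1 and 92.4 CPM in the last bin, *Srebf1* is highest in the first bin, and *Fabp4* is high at both ends.

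Other genes of the same pathways, 87 in 6 lists, gave context; 47 had enough counts. Against MSC, 9 passed in Pre-adipocyte cells, 8 of them higher, beside 10.3% of all genes called and 8.48% higher. On plain totals 13 passed, 7 of them higher and 6 lower, beside 14.9% of all genes. The regulators *Cebpb* and *Cebpd*, which act early in fat cell formation, led them, with *Cebpb* at 3691 and 3430 CPM in Pre-adipocyte, against 330 and 409 CPM in MSC cells (log2 3.54, SE 0.14, edgeR adjusted p = 5.5e-37). *Cebpd* was at 1541 and 1538 CPM in Pre-adipocyte and at 598 and 497 CPM in MSC cells. *Hilpda*, a droplet protein that holds back adipose triglyceride lipase, was at 56.2 and 153 CPM in Pre-adipocyte and at 20.6 and 12.7 CPM in MSC cells, and *Abhd5*, which activates that lipase, rose by 1.39 on the log2 scale; both passed. *Mylip*, which marks the LDL receptor for degradation, rose by 2.41 and *Nampt*, an NAD salvage enzyme, by 1.53.

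In Adipocyte progenitor cells 5 of 47 passed, all higher as were 94.6% of all genes called, beside 4.17% of all genes called: *Cebpb* (1.45), *Cebpd* (1.38), *Mylip* (1.22), *Nampt* (0.98) and *Apoe* (0.38, log2). Between the adipocyte classes, 6 of 47 passed, 5 of them higher in Pre-adipocyte cells, beside 4.96% of all genes called and 4.29% higher, led by *Cebpb* (2.09) and *Hilpda* (1.69). *Abca1*, a cholesterol exporter, was 1.30 higher and *Npc2*, a lysosomal sterol carrier, lower by 0.60 (log2 -0.60). Along the path 7 of 41 passed with *Hmgcs1* apart, 6 of them higher, beside 12% of all genes called, and on plain totals 9 passed, 4 of them higher, beside 14.5%. Under TMM, *Cebpb* (3.88), *Mylip* (2.72), *Cebpd* (2.29), *Nampt* (1.94), *Abhd5* (1.45) and *G0s2* (-1.62, log2), an inhibitor of adipose triglyceride lipase, are the ones named by rule. Of these calls, *Cebpb* and *Cebpd* in Adipocyte progenitor cells and *Cebpb* between the adipocyte classes held without each library in turn. So did *Cebpb*, *Mylip*, *Cebpd*, *Nampt* and *G0s2* on the path, where the highest edgeR adjusted p was 0.0272, for *G0s2*. The calls of *Mylip* (library 1.2), *Nampt* (1.2, 2.2 or 2.3) and *Apoe* (1.1, 1.2, 2.1 or 2.3) against MSC were lost when one of the libraries given was left out. Also lost in this way were the calls of *Hilpda* (1.2 or 2.3), *Abca1* (1.2, 2.1, 2.2 or 2.3), *Abhd5* (1.1, 2.1 or 2.2), *Mylip* (1.1 or 2.1) and *Npc2* (any) between the adipocyte classes, and of *Abhd5* on the path (1.1 or 2.1). Within MSC cells alone, none of the 6 named path genes passed.

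On the osteoblast side most called genes of these lists were lower. In Pro-osteoblast cells 25 of 47 passed, 21 of them lower, beside 38.6% of all genes called and 18.7% lower. On plain totals 42 passed, 40 of them lower, beside 70.9% of all genes called and 64.3% lower. On the log2 scale with TMM *Adipoq* fell by 5.69, lipoprotein lipase (*Lpl*) by 5.52, *Apoe* by 5.17 and *Cebpa* by 4.67. *Klf15* had 1 count there, against 141 in MSC cells, a ratio of 0.0076 (exact 95% interval 0.00019 to 0.043). In Pre-osteoblast/chondrocyte cells 11 passed, 9 of them lower, beside 18% of all genes called and 8.62% lower. *Lpl* had 3 counts there, against 9288 in MSC cells, and *Adipoq* 2 counts, against 3259. *G0s2* and *Pparg* had 0 counts there and were at least 7.44-fold and 3.82-fold lower than in MSC cells, with a floor of 3 counts over both samples. *Apoe* fell by 4.78 in that class.

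The lipoprotein receptor *Vldlr* ran the other way, as *Mgll* did. It was at 75.4 and 92.5 CPM in Osteoblast progenitor, 181 and 217 in Pre-osteoblast/chondrocyte and 107 and 86.8 in Pro-osteoblast cells, against 4.11 and 8.77 CPM in MSC cells, and no sample overlapped. It rose by 3.62, 5.02 and 4.85 in these classes (edgeR adjusted p = 3.2e-09, 1.3e-13 and 3.5e-17), and by 3.65 in Pro-osteoblast cells on plain totals. In Osteoblast progenitor cells 9 of 47 passed, 7 of them lower, beside 7.93% of all genes called and 3.31% lower, among them *Mylip* (-1.88), *Klf15* (-1.86), *G0s2* (-1.24) and *Cebpb* (-0.73, log2). The call of *Klf15* was lost without library 2.3, and that of *G0s2* without library 1.2 or 2.3. *Pdk4*, which diverts pyruvate from oxidation, was at 214 and 254 CPM in Osteoblast progenitor and at 111 and 80.9 CPM in MSC cells, and rose by 1.35 (SE 0.26, edgeR adjusted p = 6.9e-05).

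In the 14 Pro-chondrocyte cells counts were too few for levels. In Stroma2 they held 1 count of *Angptl4*, 2 of *Mgll*, 3 of *Hmgcs1* and 5 of *Fabp5*.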

How the data were processed

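Single-cell RNA was measured in 2 stroma samples (5 libraries). The deposited table holds raw counts per gene and barcode for 15028 barcodes, with the authors' filter, class and pseudotime, which they gave as a fraction (an evenly spaced rank of 0 to 1) of the adipocyte path. Bowtie 1.1.1 and GRCm38 are named in the submitters' processing notes; the sources used here do not state the counting tool, annotation, handling of molecular identifiers, or settings of filter, classes and pseudotime. No doublet caller was run.

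Counts of passing cells were summed per class and sample (at least 15 cells) or per path bin and sample (at least 20 cells). edgeR 4.0.16 in R 4.3.3 (TMM, filterByExpr with a minimum count of 10, quasi-likelihood test, sample as a term) was fitted over all genes with Benjamini-Hochberg adjustment. Python 3.11.15, numpy 2.4.6 and scipy 1.17.1 were used. The fits were also run on simulated counts, and the outcome is not given here. CPM used plain totals. Class totals behind each level ran between 55218 and 1450797 counts, and intervals and floors cover counting error only.

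Alternatives were DESeq2 1.42.0 (size factors, Wald test), no count filter, no sample term, each barcode once, cells with at least 1000 counts, other bins, path cells restricted by class, classes from 15 nearest neighbours, and each sample left out. Neighbours were found without the 37 genes and without the genes of the pathway lists. Leaving out libraries, plain totals and leaving out cells with an endothelial count were chosen after seeing the data. All members are accounted for. Of the pathway lists, up to 6 called genes by size of change with the same direction in both samples are named per comparison. The members and lists were chosen with earlier results of these data known.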

Additional observations from a re-analysis of the deposited data

Results flagged for a closer look

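Barcodes that did not pass the authors' filter (585 in Stroma1 and 1675 in Stroma2) entered no comparison, and 10 of the lipid genes stood higher in them, in both samples, than in any of the 6 classes compared. The 14 Pro-chondrocyte cells are left out of that statement, since 1 count there makes a high level: 1 count gave *Fabp4* 226 CPM in Stroma1 and *Pnpla2* 85.5 CPM in Stroma2, the second above the level outside the filter. The share of all genes that stood higher in the barcodes outside the filter was not counted, so the 10 cannot be called many or few. *Fabp4* was at 427 CPM over these barcodes (680 and 329 CPM in Stroma1 and Stroma2), against at most 56.2 and 139 CPM in 1 of the 6 classes. *Cd36* was at 34.9 CPM (49.2 and 29.4), against at most 8.38 and 8.41 CPM. *Acsl1* was at 72.9 CPM (63.2 and 76.7), against at most 20.6 and 23.1 CPM.

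The sterol enzymes that were sparse in passing cells were among them. *Sqle* was at 23.2 CPM (24.8 and 22.6), against at most 18.1 and 5.85 CPM. *Fdps* was at 39.0 CPM (34.8 and 40.7), against at most 18.1 and 16.8 CPM. *Idi1* was at 51.4 CPM (45.2 and 53.8), against at most 21.0 and 25.1 CPM.

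The lipases *Lipe*, at 10.8 CPM (12.4 and 10.2, against at most 9.60 and 6.82), and *Pnpla2*, at 40.4 CPM (37.6 and 41.4, against at most 24.1 and 25.1), differed less. So did *Fasn*, at 75.9 CPM (60.0 and 82.1, against at most 41.9 and 79.0), and *Acly*, at 85.6 CPM (80.0 and 87.8, against at most 72.4 and 46.5). The same barcodes held 840 and 348 CPM of the 10 endothelial markers, 10953 and 6805 CPM of the erythroid, 8751 and 1071 CPM of the neutrophil and 1781 and 1389 CPM of the MSC markers, against 80333 and 82148 CPM of the MSC markers in MSC cells. The part of these cell types in the levels was not tested.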

How the results depend on the processing

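The number of lipid genes called moved under some settings, and the causes were not tested. DESeq2's Wald test called 0 in Pre-adipocyte, 1 in Osteoblast progenitor and 2 in Pre-osteoblast/chondrocyte cells against MSC and 0 along the path; it was not run for the test of any difference. Plain totals called 14 in Pro-osteoblast cells. Each barcode counted once gave 1 in Adipocyte progenitor cells and 0 along the path. Without library 1.1, 1 gene was called between the adipocyte classes. Without library 1.2, 1 was called in Pre-adipocyte, 1 in Osteoblast progenitor and 0 along the path. Without library 2.1, 1 was called in Pre-adipocyte, 7 for any difference and 0 along the path. Without library 2.2, 1 was called in Adipocyte progenitor cells. Without library 2.3, 7 were called for any difference and 0 along the path. The path had 4 calls with no count filter, 3 for the end of the path against its start and 0 within MSC cells. With 10 bins it also had 0, but only 3076 genes were tested. *Hmgcs1* did not reach the count filter there, so that setting says nothing about its call.

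Directions turned for values that had not been called. *Fabp4* in Pre-adipocyte cells was -0.11 with no filter, -0.01 with no replicate block, -0.09 in cells with at least 1000 counts, -0.30 on plain totals, -1.25 without library 1.1 and -0.36 without library 2.1, and lay between -0.93 and 1.51 with 1 sample left out. In Pro-osteoblast cells *Scd2* was -0.72 on plain totals and between -0.06 and 0.76 with 1 sample left out, and *Fasn* was -0.47 on plain totals. *Angptl4* was -0.00 in Adipocyte progenitor cells on plain totals and -0.07 along the path within MSC cells, where *Nampt*, a called gene, was -0.13. The 16 calls of lipid genes had 247 alternatives, of which 30 lost the call and 0 turned direction. In 202 the result held. Values with 1 sample left out have no test, so for them this means only staying within the spread. Another 15 were such values that moved by more than the spread.

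The sample was a block in every fit except the alternative with no sample term, and the 2 samples form 1 group. Without that replicate block, *Fasn* in Pro-osteoblast cells passed (log2 0.98, edgeR adjusted p = 0.0396). Leaving out a sample gives values with no test, and leaving out library 1.1 or 1.2 left too few Pre-osteoblast/chondrocyte cells for a value. With classes taken from neighbours, 86.5% of cells kept their class, 60.4% in Osteoblast progenitor and 76.8% in Pre-adipocyte. Depth left 17 of the 37 genes untested.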
